A study of Rattus norvegicus with 6 samples.

Results

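The microtubule and axonal transport genes of the rat dorsal root ganglion were taken by gene symbol: tubulins and the gamma-tubulin complex, stathmins, the microtubule-associated proteins Map1a, Map1b, Map2 and Mapt, kinesins and their light chains, and dynein and dynactin subunits. Of 84 matching symbols in the deposited files, 79 were listed in at least 3 of the 6 libraries and form the set, out of 14346 genes listed in at least 1 library; 77 of the 79 were listed in all 6. The rule uses names and listing only, although it was drawn up with earlier results of these data known. The dorsal root ganglion holds the cell bodies of sensory neurons with their satellite glia. Ganglia came from rats 7 days after surgery, which was partial ligation of the sciatic nerve (pSNL) for 3 libraries and sham surgery for the other 3. In pSNL a part of the nerve is tied, so a ganglion holds injured and spared neurons together. Strain, age, sex, ganglion level, side and any pooling of animals are not given in the labels used here, and whether libraries come from different animals is not stated, so the p-values below reflect library-to-library spread that may be technical in part.

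A sensory neuron builds its microtubules from alpha- and beta-tubulin dimers in the cell body and the axon. Stathmins bind free tubulin and destabilise microtubule ends, while microtubule-associated proteins bind along the lattice. Kinesins carry cargo along the axon toward the terminal, and cytoplasmic dynein with its activator dynactin carries cargo back to the cell body, including injury signals. After a peripheral axon is cut, regrowth draws on new tubulin, and some tubulin isotypes and stathmins are known as growth-associated genes of sensory neurons.

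Libraries held 4310643 to 4416121 expected counts, the authors' estimates of reads per gene. Levels are given as CPM, counts scaled to library size with TMM factors. Differences were tested with edgeR's quasi-likelihood test over the 11091 genes that passed its filter on low counts. The adjusted p, by Benjamini-Hochberg over those genes, had a threshold of 0.05. The 10 pan-neuronal markers summed to 27259.5 to 37805 CPM per library, and 6 known injury genes (Atf3, Gal, Npy, Sprr1a, Sox11 and Gap43) were each higher in every pSNL library than in every sham library. The injury genes were lowest in pSNL replicate 1 among the pSNL libraries: their sum was 846 CPM there, against 1599 and 1327 CPM in pSNL replicates 2 and 3. Sham replicate 3 stands apart. All 8 central glia markers were highest in it, and their sum was 1893 CPM there against 25.7 to 57.8 CPM in the other 5 libraries. The 8 listed markers of skeletal muscle summed to 537 CPM in sham replicate 3 and 1056 CPM in pSNL replicate 3, against 12.4 to 19.7 CPM elsewhere. Several values below are given with and without these libraries.

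No member of the 70 tested passed the edgeR threshold, where 0.46% of all tested genes did: 49 genes (0.442%) were higher in pSNL and 2 (0.018%) lower. At an unadjusted p under 0.05 there were 14 members higher (20% of those tested, against 9.41% of all tested genes) and 2 lower (2.86% against 6.07%). Another count model, DESeq2, called 7 members, all higher in pSNL (Tubb2b, Tubb6, Stmn2, Kif19, Kif3a, Kif5c and Kif22), where 2.89% of all genes with an adjusted p were called (2.17% higher and 0.713% lower). The 14 members whose pSNL libraries all lay above the sham libraries were 20% of those tested, beside 11.1% of all tested genes. In the opposite direction there were 2, or 2.86%, beside 10.4%. Over both directions 21.5% of all tested genes had separate groups. The median log2 fold change of the tested members was 0.07, and 42 of the 70 were positive (60%, against 49.4% of all tested genes). Leaving out 1 library changed what was called. Without pSNL replicate 1, Tubb2b, Tubb6, Tuba1c and Kif19 passed the threshold, and without pSNL replicate 3, Kif5a, Kif1b, Kif5b and Kif3a did. Of all tested genes 1.92% and 0.852% passed in those fits. Without sham replicate 1, 2 or 3, or pSNL replicate 2, no member passed, and the shares of all genes were 0.185%, 0.0441%, 0.293% and 0.08%. With library totals as the only scaling Tubb2b passed, where 0.568% of all genes did. Leaving out replicate 3 of both groups, an alternative chosen after seeing the data, called 5 members (Kif1b, Kif5b, Kif5a, Kif3a and Stmn4), where 0.914% of all genes passed.

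**Figure D1:**
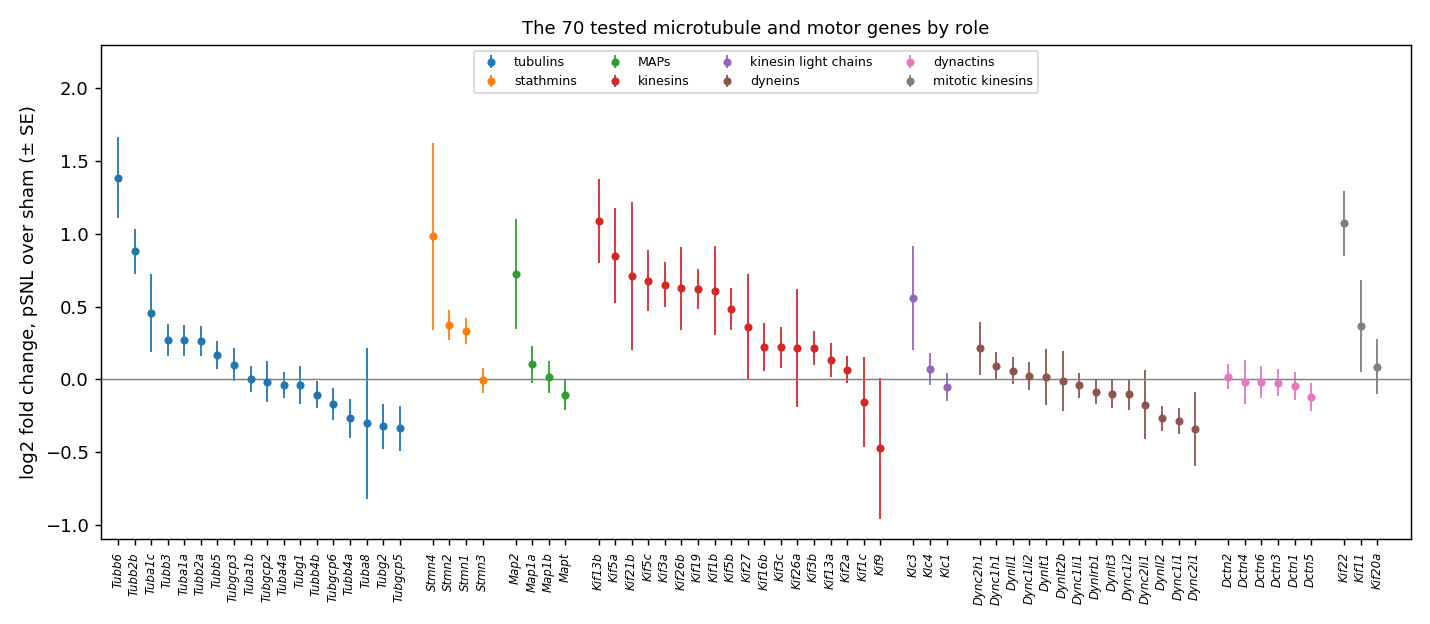
Log2 fold change of pSNL over sham (y axis) for each of the 70 tested members (x axis), coloured by role; points are edgeR estimates and bars are ± 1 standard error. Tubb6 (1.39), Kif13b (1.09) and Kif22 (1.07) have the highest values, and the dynactins lie between -0.12 and 0.02.

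Between genes, levels are compared per length, as the authors' FPKM values. In sham ganglia the most abundant members were the alpha-tubulin Tuba1a at 4020 ± 273 FPKM (SD, n = 3), the neuronal beta-tubulin Tubb3 at 3272 ± 301 FPKM and the alpha-tubulin Tuba1b at 2509 ± 122 FPKM. The stathmin Stmn2 (1321 ± 134 FPKM) came next. Tubb2a, Tubb4b and the kinesin light chain Klc1 followed at 1151 ± 33.4, 1111 ± 66.2 and 1092 ± 108 FPKM, an order in which neighbours lie within their spread. Over all 79 members the median was 22.1 FPKM, with 24 members above 100 FPKM and 10 under 1 FPKM. Counts of tubulin alpha and beta genes made up 2.37% to 2.62% of a sham library and 2.69% to 2.98% of a pSNL library, so these groups did not overlap.

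Of the 7 beta-tubulins 5 had pSNL libraries all above the sham libraries (Tubb2b, Tubb6, Tubb2a, Tubb3 and Tubb5), beside 11.1% of all tested genes, and none passed the edgeR threshold. Tubb2b (gene ID 291081), an isotype abundant in developing neurons, was at 866, 833 and 670.1 CPM in sham replicates 1 to 3 and at 1164, 1733 and 1462 CPM in pSNL replicates 1 to 3. Each pSNL library was thus above each sham library, with replicate 1 the lowest of the pSNL libraries. Its log2 fold change was 0.88 ± 0.16 (SE), a 1.84-fold ratio, and the smallest p among members (edgeR adjusted p = 0.0576; 5.97e-07 to 0.210 over the alternatives, of which 5 of 12 passed). Tubb6 (gene ID 307351), a beta-tubulin of mainly non-neuronal cells that is scarce in resting ganglia, was at 17.4, 26.9 and 20.2 CPM in sham and 35.4, 68.4 and 64.9 CPM in pSNL. The ratio was 2.61, the highest of all tested members (log2 fold change 1.39 ± 0.28, edgeR adjusted p = 0.0861; 4.99e-05 to 0.270 over the alternatives). Without pSNL replicate 1 both genes passed the threshold (edgeR adjusted p = 0.00628 for Tubb2b and 0.00273 for Tubb6).

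The abundant isotypes differed by less. Tubb3 (gene ID 246118), the beta-tubulin used as a marker of neurons, was at 6214, 6291 and 5200 CPM in sham and 6385, 7445 and 7495 CPM in pSNL. The groups did not overlap, although pSNL replicate 1 exceeded the highest sham library by little (log2 fold change 0.27 ± 0.11, edgeR adjusted p = 0.278). Tubb2a (gene ID 498736) had the same shape, at 1882, 1898 and 1761 CPM in sham and 1907, 2410 and 2331 CPM in pSNL (log2 fold change 0.26 ± 0.10, edgeR adjusted p = 0.269). Tubb5, found in most cell types, was at 2205 ± 199 and 2479 ± 102 CPM in sham and pSNL (n = 3 each). By contrast Tubb4b, chosen after its values were seen, was at 1755 ± 121 and 1633 ± 109 CPM, with overlapping groups. Tubb4a, an isotype of neurons and of myelin-forming oligodendrocytes, was at 1211, 1156 and 1647 CPM in sham and 1144, 1022 and 1167 CPM in pSNL. Its high sham value came from the library with raised central glia markers, and the log2 fold change went from -0.27 to -0.09 without that library. The part of central tissue in the value was not tested.

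**Figure D2:**
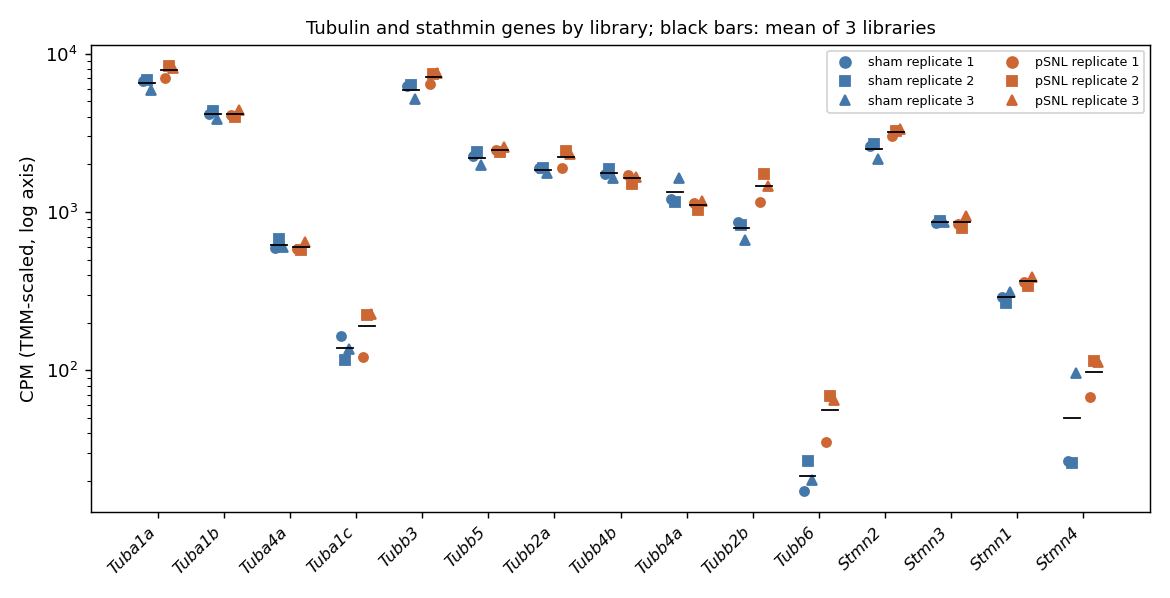
CPM on a log axis (y) for 11 tubulin and 4 stathmin genes (x), with 1 point per library, blue for sham and orange for pSNL, symbols for replicate number and black bars for the mean of 3 libraries. Tubb2b and Tubb6 show separated groups, Tuba1b and Stmn3 overlap, and Stmn4 is at 96.5 CPM in sham replicate 3 against 25.9 and 26.8 CPM in the other sham libraries.

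Isotype composition can be read within a library as the share of summed beta-tubulin FPKM, which does not depend on scaling between libraries. Tubb2b made up 6.56%, 6.18% and 5.59% of beta-tubulin FPKM in sham replicates 1 to 3 and 8.45%, 11.2% and 9.34% in pSNL replicates 1 to 3. Its share was therefore larger in every pSNL library, by 3.53 percentage points between the means. Tubb4b went the other way, with 14.7% ± 0.41 in sham and 11.8% ± 1.51 in pSNL (SD, n = 3 each), again without overlap. Shares within a family depend on each other, so a smaller share need not mean a lower level. Tubb3 remained the largest isotype at 41.0% to 45.3% in every library. Tubb6, despite its ratio, was at most 0.42% of beta-tubulin FPKM in any library.

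**Figure D3:**
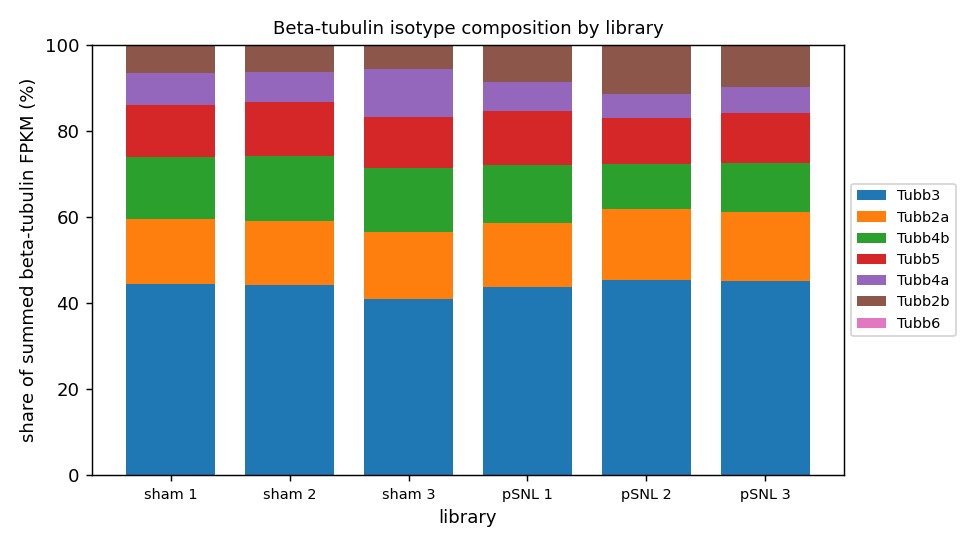
Share of summed beta-tubulin FPKM (y axis, percent) by isotype in each of the 6 libraries (x axis). Tubb2b takes 5.59% to 6.56% in the sham libraries and 8.45% to 11.2% in the pSNL libraries.

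Among the alpha-tubulins 5 of 6 members were tested, and Tuba1a alone had separate groups. Of all tested genes 11.1% were apart in the same direction, and no alpha-tubulin passed the edgeR threshold with all libraries. Tuba1a (gene ID 64158), the main alpha-tubulin of growing neurons, was at 6764, 6854 and 5919.7 CPM in sham and 6999, 8369 and 8139 CPM in pSNL. Every pSNL library was higher, with a log2 fold change of 0.27 ± 0.11 (edgeR adjusted p = 0.267). Tuba1b (gene ID 500929), a broadly expressed alpha-tubulin, was at 4185, 4370 and 3884 CPM in sham and 4079, 3992 and 4385 CPM in pSNL. Its groups overlapped around a log2 fold change of 0.00 ± 0.09, whose sign changed between scalings. Within alpha-tubulin FPKM the share of Tuba1a was 57.1% ± 0.83 in sham and 61.3% ± 2.14 in pSNL, and that of Tuba1b was 35.6% ± 0.53 and 31.9% ± 2.11 (SD, n = 3 each), neither overlapping between groups. Tuba1a and Tuba1b make up most of the sum, so their shares mirror each other and are not separate results. Tuba1c (gene ID 300218) was at 165, 116 and 137 CPM in sham and 122, 222 and 228 CPM in pSNL. Here pSNL replicate 1 lay within the sham range, and without it the gene passed the threshold (log2 fold change 0.70, edgeR adjusted p = 0.0490, against 0.45 and 0.480 with all libraries). Tuba4a, the last of the abundant alpha-tubulins, was at 620.1 ± 44.6 and 604.3 ± 40.7 CPM (n = 3 each), with overlapping groups. Tubulin genes are close paralogs, and how reads were divided between copies is uncertain.

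Start regions are shown for Tubb2b, Tubb2a, Tubb3 and Tuba1a, whose groups were apart, and for Tuba1b, whose groups overlapped. No beta-tubulin with overlapping groups is shown. The 150 bases before the RefSeq start (assembly GRCr8, 5′ to 3′ on the gene's strand) of 3 beta- and 2 alpha-tubulin genes follow, in lower case. Capitals mark the CRE core TGACG, which is the binding motif of CREB and ATF proteins, the CCAAT box CCAAT, the GC box GGGCGG and the TATA box TATAAA, each searched on both strands. The CRE core lies inside the full CRE.
Tubb2b, chr17:30952936-30953085, plus strand: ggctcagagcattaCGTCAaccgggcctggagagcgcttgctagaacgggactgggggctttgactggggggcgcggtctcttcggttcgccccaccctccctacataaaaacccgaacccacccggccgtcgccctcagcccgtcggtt
Tubb2a, chr17:31002036-31002185, plus strand: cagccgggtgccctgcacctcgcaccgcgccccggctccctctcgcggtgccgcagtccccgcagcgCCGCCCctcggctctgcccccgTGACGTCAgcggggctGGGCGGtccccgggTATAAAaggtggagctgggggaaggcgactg
Tubb3, chr19:68365537-68365686, plus strand: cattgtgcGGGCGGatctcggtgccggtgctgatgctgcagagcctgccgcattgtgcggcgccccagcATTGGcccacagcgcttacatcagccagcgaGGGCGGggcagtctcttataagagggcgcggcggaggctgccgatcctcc
Tuba1a, chr7:131995820-131995969, minus strand: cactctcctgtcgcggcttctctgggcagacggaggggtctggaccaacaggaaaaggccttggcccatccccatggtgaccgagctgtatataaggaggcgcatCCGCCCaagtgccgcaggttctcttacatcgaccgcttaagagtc
Tuba1b, chr7:131972588-131972737, minus strand: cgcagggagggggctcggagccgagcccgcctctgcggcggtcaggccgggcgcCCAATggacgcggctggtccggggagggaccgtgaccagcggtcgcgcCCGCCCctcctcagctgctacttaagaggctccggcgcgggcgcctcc

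Tubb2a holds a full CRE (TGACGTCA) that begins 61 bases before the start and a TATA box that begins 31 bases before it, while Tubb2b holds the shorter CRE core 136 bases before its start. Tuba1a and Tuba1b each hold a GC box, 45 and 48 bases before the start. A promoter entry was matched by gene ID for 66 of the 79 members. In the 200 bases before the start, a full CRE was found in 5 of these 66 (7.58%; Tubb2a, Kif5c, Klc1, Dctn3 and Kif15) and in 1.46% of all 33469 RefSeq start regions in the table. The AP-1 motif TGANTCA was found in 3 members (4.55%) and in 4.97% of all regions. The shorter CRE core was found in 27.3% of members and 15.9% of all regions, GC boxes in 59.1% and 28.6%, and CCAAT boxes in 42.4% and 29.2%. TATA boxes went the other way, with 6.06% of members and 10.4% of all regions. A member was counted once if any of its start regions held the motif, while the full table was counted by region. The shares of members and of all regions therefore differ in unit. The full table includes start regions of genes not expressed in the ganglion, and a match is a description of letters only.

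Gamma-tubulins, which seed microtubules, and their complex proteins had no member at an unadjusted p under 0.05. Tubg1, chosen after its values were seen, was at 96.2 ± 11.1 and 93.6 ± 14.1 CPM in sham and pSNL. Of these 6 genes 5 had a negative fold change, and each of the 6 had overlapping groups. Tubgcp5, chosen after its values were seen, had the most negative log2 fold change of all tubulin and complex genes, -0.34 ± 0.16 (edgeR adjusted p = 0.339).

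Of the 4 stathmins, Stmn1 and Stmn2 had pSNL values that were all above the sham values, beside 11.1% of all tested genes. No stathmin passed the edgeR threshold with all libraries. Stmn2 (gene ID 84510), the neuronal stathmin also called SCG10, was at 2594, 2688 and 2166 CPM in sham and 3027, 3252 and 3357 CPM in pSNL. The lowest pSNL library was above the highest sham library, with a log2 fold change of 0.37 ± 0.10 (edgeR adjusted p = 0.130; 0.0200 to 0.381 over the alternatives, the lowest with DESeq2). Stmn1 (gene ID 29332), also expressed in dividing cells, was at 292, 265 and 312 CPM in sham and 363, 343 and 387 CPM in pSNL (log2 fold change 0.33 ± 0.09, edgeR adjusted p = 0.126). Stmn3, the remaining abundant stathmin, was at 864 ± 12.5 and 859 ± 71.8 CPM (n = 3 each). It made up 32.2% ± 1.20 of stathmin FPKM in sham and 26.5% ± 1.37 in pSNL, and these shares did not overlap. A share also depends on the other stathmins in the sum, so this is not a separate result about the level of Stmn3.

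Stmn4 (gene ID 79423), a stathmin of neurons and oligodendrocytes, depended on a single library. It was at 26.8, 25.9 and 96.5 CPM in sham and 68.1, 115 and 112 CPM in pSNL. The value of sham replicate 3, the library with raised central glia markers, lay above that of pSNL replicate 1. With all libraries the log2 fold change was 0.98 ± 0.64 (edgeR adjusted p = 0.544), and without sham replicate 3 it was 1.89 (adjusted p = 0.0532). Leaving out replicate 3 of both groups gave 1.79 and an adjusted p of 0.0499. Over all alternatives the adjusted p was 0.0499 to 0.788. The part of central tissue in the sham value was not tested.

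The 4 microtubule-associated proteins had no member with an unadjusted p under 0.05 and no member with separate groups. Map1b (gene ID 29456), which stabilises axonal microtubules, was the most abundant at 305 ± 32.9 FPKM in sham and 310.3 ± 28.2 FPKM in pSNL. Map1a was at 1691 ± 127 and 1816 ± 319 CPM, and Mapt, which encodes tau, at 516 ± 19.1 and 479 ± 66.1 CPM (n = 3 each). Map2 (gene ID 25595), a protein of cell bodies and dendrites, was at 12.1, 18.1 and 13.3 CPM in sham and 25.9, 34.4 and 11.7 CPM in pSNL. Thus pSNL replicates 1 and 2 were above every sham library while pSNL replicate 3 was below every one (log2 fold change 0.72 ± 0.38, edgeR adjusted p = 0.416). Without pSNL replicate 3 the log2 fold change was 1.05 (edgeR adjusted p = 0.0674), and without pSNL replicate 2 it was 0.36 (0.771).

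The 18 kinesins outside cell division had a median log2 fold change of 0.42, with 16 positive and 2 negative (Kif1c and Kif9), beside a median of -0.002 over all tested genes. That median was 0.13 without pSNL replicate 2 and 0.54 without pSNL replicate 3. No kinesin among them passed the edgeR threshold, while 6 reached an unadjusted p under 0.05 (all higher, beside 9.41% of all tested genes) and DESeq2 called 3 higher (beside 2.17%). With all 3 pSNL libraries, 5 of the 18 had separate groups, all upward, beside 11.1% of all tested genes. A split of the pSNL libraries, chosen after the values were seen, is given as a description only. In 13 of the 18 (72.2%) both pSNL replicates 1 and 2 were above all sham libraries, against 19.6% of all tested genes. By contrast pSNL replicate 3 was above all sham libraries in 5 (27.8%, against 28.4% of all tested genes). Of the 13, pSNL replicate 3 was above all sham libraries as well in 5, and not in 8. It was below every sham library, as for Map2, in 3 of those 8 (Kif1b, Kif3c and Kif21b).

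Kinesin-1 heavy chains drive fast axonal transport. Kif5a (gene ID 314906) is the neuronal heavy chain. With Kif3c (59.2 and 58.2 FPKM on average in sham) it was the most abundant kinesin heavy chain among those listed. Kif1a, a further neuronal kinesin, was not listed in any library. Kif5a was at 208, 231 and 189 CPM in sham and 442, 478 and 211 CPM in pSNL. In pSNL replicates 1 and 2 it was above every sham library, and in replicate 3 it was within the sham range. The log2 fold change was 0.85 ± 0.33 (edgeR adjusted p = 0.312), and without pSNL replicate 3 it was 1.13 (adjusted p = 0.00455; 0.00297 to 0.626 over the alternatives). Kif5b (gene ID 117550), the heavy chain of most cells, was at 80.5, 73.4 and 70.5 CPM in sham and 114, 119.5 and 80.3 CPM in pSNL (edgeR adjusted p = 0.158, and 0.0362 without pSNL replicate 3). Kif5c (gene ID 311024) was at 78.4, 62.9 and 65.5 CPM in sham and 97.6, 149 and 84.6 CPM in pSNL, with separate groups (edgeR adjusted p = 0.195). Summed FPKM of the 3 heavy chains was 96.4 to 107 in sham, and 194, 216 and 109 in pSNL replicates 1 to 3. Within that sum Kif5a took 54.5% to 65.9% in every library, so the order Kif5a, Kif5b, Kif5c held by mean in both groups. The light chain Klc1, which links the motor to cargo, was at 2385 ± 262 and 2298 ± 22.5 CPM in the sham and pSNL groups (n = 3 each). It made up 97.7% to 98.4% of the summed FPKM of Klc1, Klc3 and Klc4. Another light chain, Klc2, was not listed in any library, so the share of Klc1 in all light chain RNA is not known. The scarce light chain Klc3 was at 3.21, 3.67 and 3.22 CPM in sham and 3.41, 4.39 and 7.11 CPM in pSNL (log2 fold change 0.56 ± 0.36, edgeR adjusted p = 0.490), and its groups overlapped.

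Kif3a (gene ID 84392), a subunit of the kinesin-2 motor of axons and cilia, was at 44.2, 47.5 and 40.4 CPM in sham and 73.8, 80.7 and 53.0 CPM in pSNL. All pSNL libraries were higher, replicate 3 by the least (log2 fold change 0.65 ± 0.15, edgeR adjusted p = 0.0891; 0.0250 to 0.317 over the alternatives, the lowest without pSNL replicate 3). Its partners in the motor, Kif3c and (chosen after its values were seen) Kif3b, were at 80.0 ± 6.13 and 92.8 ± 12.4 CPM for Kif3b and at 202 ± 8.28 and 235 ± 50.4 CPM for Kif3c in sham and pSNL, with overlapping groups. Kif1b (gene ID 117548), a carrier of mitochondria and synaptic vesicle precursors, was at 58.0, 65.9 and 58.4 CPM in sham and 104, 122 and 52.5 CPM in pSNL. In this gene pSNL replicate 3 was the lowest of all 6 libraries. Without that library the log2 fold change was 0.89 (edgeR adjusted p = 0.0204) in place of 0.61 (0.408). Kif13b (gene ID 305967) was at 9.40, 5.05 and 7.58 CPM in sham and 16.3, 19.7 and 11.01 CPM in pSNL, a 2.13-fold ratio (edgeR adjusted p = 0.116). Kif21b, chosen after its values were seen, was at 7.26 and 11.6 CPM in pSNL replicates 1 and 2 and 2.29 CPM in replicate 3, the lowest of all libraries. Its log2 fold change was 0.71 (edgeR adjusted p = 0.544), 1.13 without pSNL replicate 3 (0.152) and 0.15 without pSNL replicate 2 (0.942).

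**Figure D4:**
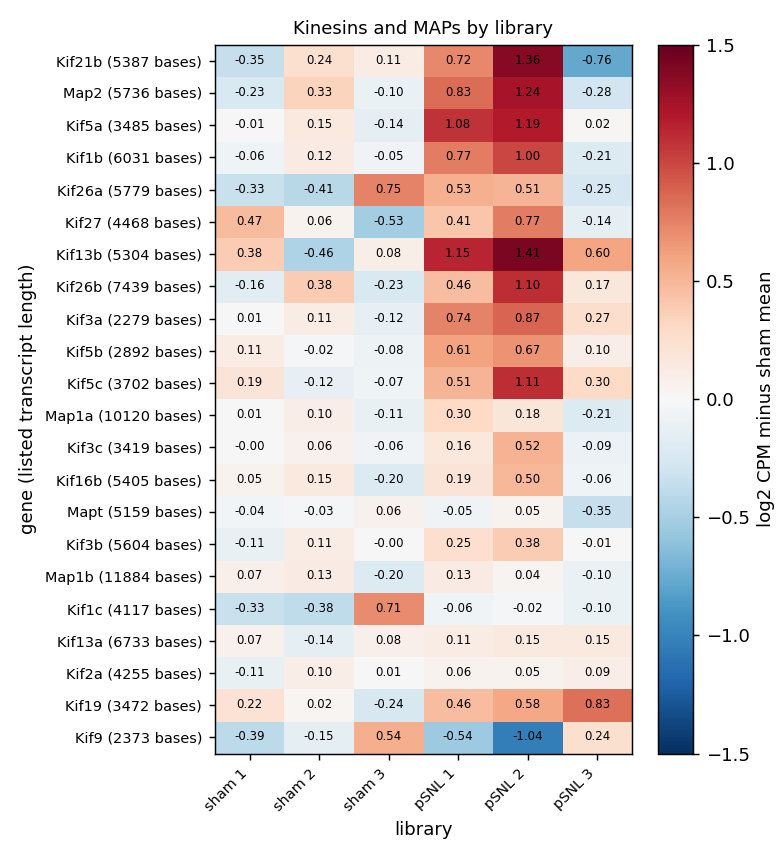
Heat map of log2 CPM minus the mean of the 3 sham libraries (colour and printed value) for 18 kinesins and 4 MAPs (rows, with listed transcript length) in the 6 libraries (columns), ordered by how far pSNL replicates 1 and 2 exceed replicate 3. Kif5a is 1.08 and 1.19 in pSNL replicates 1 and 2 and 0.02 in replicate 3, and Kif19 is highest in replicate 3 (0.83).

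The difference between pSNL libraries moved with transcript length over all tested genes. For the 967 genes longer than 5000 bases, the median deviation from the sham mean (log2 CPM) was 0.16 and 0.17 for pSNL replicates 1 and 2 and -0.03 for replicate 3. For the 968 genes under 1000 bases it was 0.02, -0.04 and 0.10. Among tested members, the 15 longer than 5000 bases had medians of 0.25, 0.45 and -0.10 in pSNL replicates 1 to 3, and the 6 under 1000 bases had -0.006, -0.10 and 0.10. Muscle markers were also high in pSNL replicate 3, as given above. The part of length, RNA quality or added tissue in the kinesin values was not tested.

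**Figure D5:**
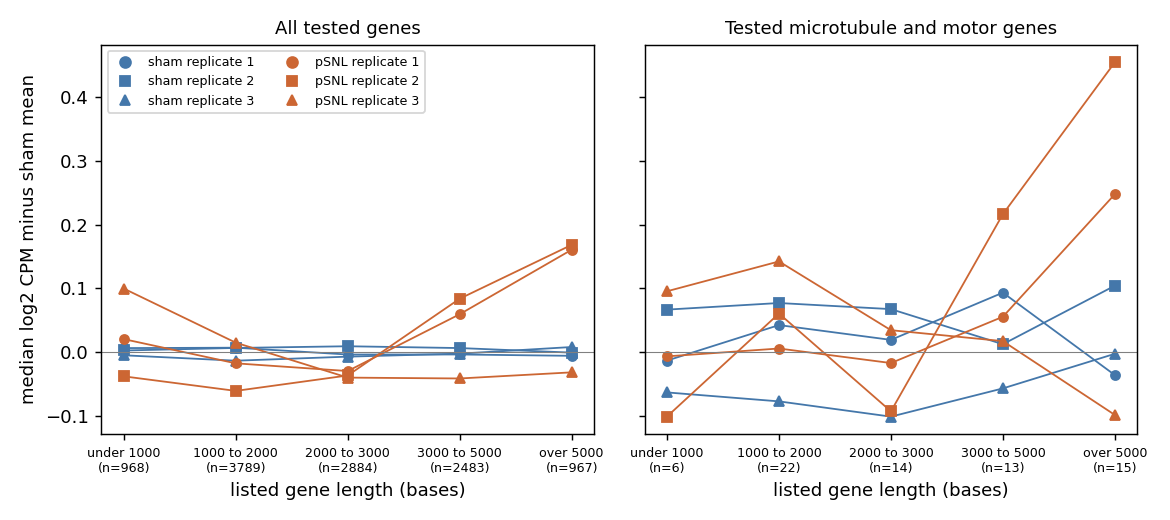
Median log2 CPM minus the sham mean (y axis) by listed gene length (x axis, with the number of genes) for all tested genes (left) and tested members (right), 1 line per library. In the longest class pSNL replicates 1 and 2 lie above the other libraries (0.16 and 0.17 for all tested genes, 0.25 and 0.45 for members) and pSNL replicate 3 does not (-0.03 and -0.10).

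In 5 of the 18 kinesins pSNL replicates 1 and 2 were not both above every sham library, and others differed in replicate 3. Kif19 (gene ID 303659), a kinesin known for trimming the tips of cilia, was at 119.9, 105 and 87.3 CPM in sham and 142, 154 and 184 CPM in pSNL. It was thus highest in pSNL replicate 3 (log2 fold change 0.62 ± 0.13, edgeR adjusted p = 0.0801; 0.00529 to 0.259 over the alternatives), and without pSNL replicate 1 it passed the threshold (0.70, adjusted p = 0.0490). Leaving out replicate 3 of both groups lowered its log2 fold change to 0.40. Kif1c, chosen after its values were seen, was at 141 CPM in sham replicate 3, the library with raised central glia markers, and at 66.1 to 85.1 CPM in the other 5. Its log2 fold change was -0.16 with all libraries and 0.29 without that one (edgeR adjusted p = 0.858 and 0.234; 0.177 to 0.932 over the alternatives).

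Of 9 kinesins of cell division 3 passed the filter on low counts, and the other 6 had 35 to 59 counts summed over the 6 libraries. Kif22 (gene ID 293502), which moves chromosomes on the spindle, had 24, 30 and 35 counts in sham (5.50, 6.89 and 8.04 CPM) and 57, 68 and 63 counts in pSNL (12.9, 15.7 and 14.4 CPM). Every pSNL library was above every sham library, with a ratio of 2.11 (log2 fold change 1.07 ± 0.22, edgeR adjusted p = 0.0675; 0.0495 to 0.256 over the alternatives). The spread of Kif22 within each group was small, at an SD of 1.27 and 1.39 CPM. Kif20a was at 13.4 ± 0.88 and 14.2 ± 2.301 CPM (n = 3 each), and Kif11, the spindle motor, chosen after its values were seen, at 3.90 ± 1.00 and 5.04 ± 0.43 CPM, both with overlapping groups. Of 8 cell cycle markers, 1 reached an unadjusted p under 0.05 (higher, beside 9.41% of all tested genes), and neither edgeR nor DESeq2 called any. Of the 8 markers, 2 were apart upward and none downward, beside 11.1% and 10.4% of all tested genes. They summed to 64.5 to 78.8 CPM in sham and 72.7 to 80.6 CPM in pSNL.

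The dynein and dynactin genes had no member called by edgeR or DESeq2. Of 14 tested dynein chains, which include 3 subunits of dynein 2, 5 had a positive and 9 a negative fold change. Over all tested genes 49.4% were positive. The 5 subunits of cytoplasmic dynein 1 alone had 2 positive and 3 negative fold changes. Among the 14 dynein chains, an unadjusted p under 0.05 was reached by 2, both lower in pSNL, beside 6.07% lower over all tested genes. The same 2 were the only dynein chains with separate groups, beside 10.4% of all tested genes apart downward. Dync1i1 (gene ID 29564), the neuronal intermediate chain that binds dynactin, was at 431, 404 and 366 CPM in sham and 341, 317 and 328 CPM in pSNL. Each pSNL library was below each sham library (log2 fold change -0.29 ± 0.09, edgeR adjusted p = 0.157). Dynll2 (gene ID 140734), the most abundant light chain here, was at 1274, 1407 and 1261 CPM in sham and 1137, 1025 and 1111 CPM in pSNL, again without overlap (-0.27 ± 0.09, edgeR adjusted p = 0.189). The adjusted p of both stayed above the threshold in every alternative run (0.0781 to 0.416 and 0.0502 to 0.468). The motor subunit Dync1h1 was at 1134 ± 80.6 and 1211 ± 77.7 CPM, and the light chain Dynll1 at 339.95 ± 32.5 and 354 ± 20.3 CPM (n = 3 each), both overlapping. All 6 dynactin genes had overlapping groups and log2 fold changes of -0.12 to 0.02. Dctn1, the subunit that contacts dynein and the microtubule, was at 1145 ± 103 and 1109 ± 71.4 CPM in sham and pSNL. Dctn2 was at 538 ± 39.5 and 544 ± 23.7 CPM, and Dctn5 had the smallest p of the group (edgeR adjusted p = 0.584).

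Outside these families, 40 other microtubule regulators and 26 motor adaptors and related motors were listed from general knowledge. The 34 measured regulators held 7 with an unadjusted p under 0.05, all higher in pSNL, beside 9.41% higher over all tested genes. None passed the edgeR threshold, and DESeq2 called 1 higher, beside 2.17% of all genes with an adjusted p. That gene was Map4, a microtubule-associated protein of many cell types, at 411, 380.1 and 431 CPM in sham and 506, 588 and 496 CPM in pSNL (edgeR adjusted p = 0.0977). Clip2, a plus-end protein, was at 276 ± 24.4 and 342 ± 38.6 CPM (edgeR adjusted p = 0.203). Of the regulators 11 were apart upward and 3 downward (32.4% and 8.82%, beside 11.1% and 10.4% of all tested genes), and their median fold change was 0.11 on the log2 scale. The 24 measured adaptors held none called by edgeR or DESeq2. At an unadjusted p under 0.05, 2 were higher and 2 lower, beside 9.41% and 6.07% of all tested genes. Of the adaptors 8.33% were apart upward and 12.5% downward, beside 11.1% and 10.4% of all tested genes. Both of the named adaptors link motors to mitochondria. Trak1 was at 156 ± 11.5 and 191 ± 23.2 CPM, and Rhot1 at 89.3 ± 1.93 and 75.3 ± 5.72 CPM (edgeR adjusted p = 0.218 and 0.254). Mapk8ip3, chosen after its values were seen, is an adaptor of kinesin-1 and was at 307, 321 and 282 CPM in sham and 463, 519 and 274 CPM in pSNL. Like Kif5a it was high in pSNL replicates 1 and 2 only, and without replicate 3 it passed the threshold (edgeR adjusted p = 0.0226, against 0.387 with all libraries).

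Markers of the ganglion's cell types were summed per library, and edgeR called none of those in this paragraph. DESeq2 called 5 macrophage, 2 fibroblast and 1 Schwann cell marker higher, beside 2.17% of all genes with an adjusted p. It called 2 pan-neuronal markers and 1 satellite glia marker lower, beside 0.713%. For the counts of markers apart, the shares of all tested genes were 11.1% upward and 10.4% downward. Pan-neuronal markers summed to 30476 to 37805 CPM in sham and 27259.5 to 30219.7 CPM in pSNL, without overlap. The neurofilament genes Nefl and Nefm made up most of these sums, and the other 8 markers summed to 7701 to 8852 CPM in sham and 7948 to 8511 CPM in pSNL, which overlap. Of the 10, 3 were apart downward (Rbfox3, Snap25 and Nefl), and 5 had a positive fold change, none with separate groups. Fibroblast markers summed to 1679 to 3728 CPM in sham and 4109 to 6858 CPM in pSNL, with 6 of 6 apart upward. Macrophage markers summed to 162 to 215 CPM and 295 to 500 CPM, with 4 of 8 apart upward. Schwann cell myelin markers summed to 17383 to 21025 and 19638 to 30718 CPM, and 1 of 6 was apart upward. Satellite glia markers summed to 7069 to 11678 and 5724 to 6981 CPM, and 1 of 5 was apart downward. Endothelial markers summed to 128 to 167 and 115 to 143 CPM, with none of 5 apart. Erythroid markers summed to 2582 to 6512 and 1013 to 4993 CPM, with none of 4 apart. Of the markers in these lists none was at 0 in all libraries. Most tubulins, Stmn1 and Kif5b are expressed by several of these cell types. The part of cell composition in the members' values was not tested, and in whole ganglia fewer cells of a type and less RNA per cell cannot be told apart.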

How the data were processed

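RNA-seq libraries of rat dorsal root ganglion (3 sham, 3 pSNL) were deposited as gene tables with an expected count, which the authors estimated per gene, and an FPKM value, which the authors scaled per length and library. CASAVA 1.4 and Bowtie2 are named in the submitters' processing notes; the quantifier, build and gene models (not given in the sources used here) are unknown. Expected counts were rounded, genes absent from a table were set to 0, and edgeR 4.0.16 (R 4.3.3, limma 3.58.1; TMM, filterByExpr, robust quasi-likelihood fit, Benjamini-Hochberg over 11091 genes) was run on all 6 libraries; the script was tested on simulated data. Alternatives were DESeq2 1.42.0, other scalings, no filter, each library left out, and a replicate block. Members, gene lists and tests were chosen with earlier results of these data known. Named genes were the 12 members with the smallest p, 29 members of a list of core neuronal genes, and in each role the most abundant member and that with the smallest p, and others given values are marked as chosen after their values were seen. Gene IDs were matched to RefSeq names (14227 by gene ID, 16 by accession, 103 unmatched).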

Additional observations from a re-analysis of the deposited data

How the results depend on the processing

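The count of members past the edgeR threshold was 0 (higher and lower) with all libraries. For higher members it was 1 with library totals only, 7 with DESeq2, 1 with no filter, 5 without replicate 3 of both groups (chosen after seeing the data) and 0 to 4 with 1 library left out. No alternative called a member lower. Among the other microtubule and transport genes, in place of 0, the count higher was 1 with DESeq2, 1 without both replicates 3 and 0 to 1 with 1 library left out. Over all genes, the count called in either direction was 51 with all libraries, 332 with DESeq2, 89 with no filter, 102 without both replicates 3 and 5 to 217 with 1 library left out (5 without sham replicate 2, 217 without pSNL replicate 1). The members' median log2 fold change, 0.069 over the 70 tested members, was 0.013 with DESeq2 and 0.018 with no filter. Both of those fits also included the 9 members below the filter on low counts, so these medians are over a different set of genes. The share of calls that were higher was 96.1%, and 75.3% with DESeq2, 85.4% with no filter and 84.8% without sham replicate 3. The cause was not tested.

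With the replicate number as a replicate block, 2 members (Tubb2b and Tubb6) and 111 of all genes passed. Same-numbered libraries correlated at 0.032, 0.011 and 0.123 in their deviations from the group means, and sham replicates 1 and 2 correlated better with another number, so the numbers were not taken as pairs.

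Changes of sign were seen in genes with small differences. Tuba1b was at -0.0035 with RLE factors, -0.0075 with DESeq2, -0.0031 with no filter and -0.085 without both replicates 3. Without both replicates 3, Map1b was at -0.021, Mapt 0.030, Dynll1 -0.065, Dctn2 -0.073, Kif20a -0.029 and Kif1c 0.31. With 1 library left out the log2 fold change ranged from -0.046 to 0.039 for Tuba1b, -0.096 to 0.021 for Tuba4a, -0.13 to 0.072 for Tubg1, -0.077 to 0.040 for Stmn3, -0.081 to 0.079 for Map1b, -0.019 to 0.12 for Dynll1, -0.12 to 0.0028 for Dctn1, -0.040 to 0.070 for Dctn2, -0.052 to 0.18 for Kif20a and -0.35 to 0.29 for Kif1c.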
